A study of Mus musculus with 6 samples.

Results

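Astrocytes were followed through 10 genes of their characteristic proteins, Gfap, Aqp4, Slc1a2, Slc1a3, Glul, S100b, Aldh1l1, Gja1, Gjb6 and Sox9, in the mouse cochlear nucleus after the auditory nerve of 1 ear had been silenced. Every probe set whose only gene symbol in the array platform's annotation was one of these 10 was taken, without regard to its values, which gave 23 of the 22690 probe sets measured. Of these, 21 were bright enough to be tested among 15298 in all, with a mean log2 value above 4 over the arrays, and every one of the 10 genes kept at least 1 probe set. The other 2, 1424401_at of Aldh1l1 and 1438973_x_at of Gja1, were dim (levels from 3.02 to 3.77 and from 3.88 to 4.05) and are given as levels only.

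Tetrodotoxin, which blocks voltage-gated sodium channels and so stops action potentials, had been delivered to 1 cochlea of each mouse by an osmotic pump for 24 h, and the cochlear nuclei were taken at postnatal day 21. The ipsilateral group was the nucleus on the infused side and the contralateral group the nucleus on the other side of treated mice, with 3 replicates a side, each of which pooled 10 to 12 mice and was measured on 1 array. No group of untreated mice was analysed here, the contralateral nuclei came from mice that received the drug in the other ear, and neither strain nor sex is given in the sources used here. Levels are log2 GCRMA values per probe set, a scale on which a difference of 1 is a doubling of signal, and levels of different probe sets are not compared because probes differ in brightness.

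The cochlear nucleus is the first brain station of hearing, where axons of the auditory nerve end on neurons whose synapses are wrapped by astrocyte processes. Astrocytes clear released glutamate with the transporters encoded by Slc1a2 and Slc1a3 and convert it to glutamine with the enzyme encoded by Glul. They move water through the water channel of Aqp4 and share ions through gap junctions built from the connexins of Gja1 and Gjb6. Gfap, the intermediate filament gene of these cells, is widely used as a sign of astrocyte reactivity, and the transcription factor STAT3 is known to drive it in reactive astrocytes.

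The promoter windows of Gfap and Slc1a3 are shown because they were the 2 of 8 member genes matched in the RefSeq promoter table (build GRCm38.p6, 300 bases, 250 before the gene start) that held the letters TTCNNNGAA, the palindromic core bound by STAT factors. The motif reads the same on both strands, and 8.3% of all 32851 windows of that length held it. Capitals mark the motif, and each stretch is printed on the gene's own minus strand. The first lies at chr11:102897194-102897350 and its motif spans positions -2 to 7 around the start, whose first base is position 1. The second lies at chr15:8710808-8710957 with the motif at positions -96 to -88.
Gfap: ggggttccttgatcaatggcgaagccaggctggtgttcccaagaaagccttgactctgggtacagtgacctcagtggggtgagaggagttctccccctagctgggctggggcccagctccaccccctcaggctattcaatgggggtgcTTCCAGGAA
Slc1a3: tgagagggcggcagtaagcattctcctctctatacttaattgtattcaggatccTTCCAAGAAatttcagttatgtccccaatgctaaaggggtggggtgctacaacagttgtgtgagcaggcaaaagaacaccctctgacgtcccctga
The match is a description of these letters, and the arrays do not measure binding of any factor there.

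The comparison asked whether silencing the nerve for 24 h altered astrocyte transcripts in its target nucleus. No astrocyte gene passed the test on any of its probe sets. Of the 21 tested probe sets 0 passed a Benjamini-Hochberg adjusted p of 0.05 in limma, against 0 of 15298 (0%) over all probe sets, and 0 had an unadjusted p under 0.05 against 2.38% of all. The median difference, ipsilateral minus contralateral, was 0.06 on the log2 scale for the member probe sets and -0.01 for all probe sets tested. The median size of the difference without its sign was 0.07 for the members and 0.08 for all probe sets, and the median standard error was 0.13 for both. For 16 of the 21 the 95% interval of the difference stayed within 1.5-fold in either direction. The exceptions were 1426340_at and 1426341_at of Slc1a3, 1415801_at of Gja1 and both probe sets of Sox9. These intervals come from a fit that does not pair the sides. With the replicate number as a block, the log2 interval of Slc1a3 1426340_at ran from -0.16 to 0.29. That of Sox9 1424950_at then ran from 0.02 to 0.51, above 0. Both lay within 1.5-fold in that fit. In whole tissue, fewer cells of a type and less RNA per cell cannot be told apart.

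**Figure D1:**
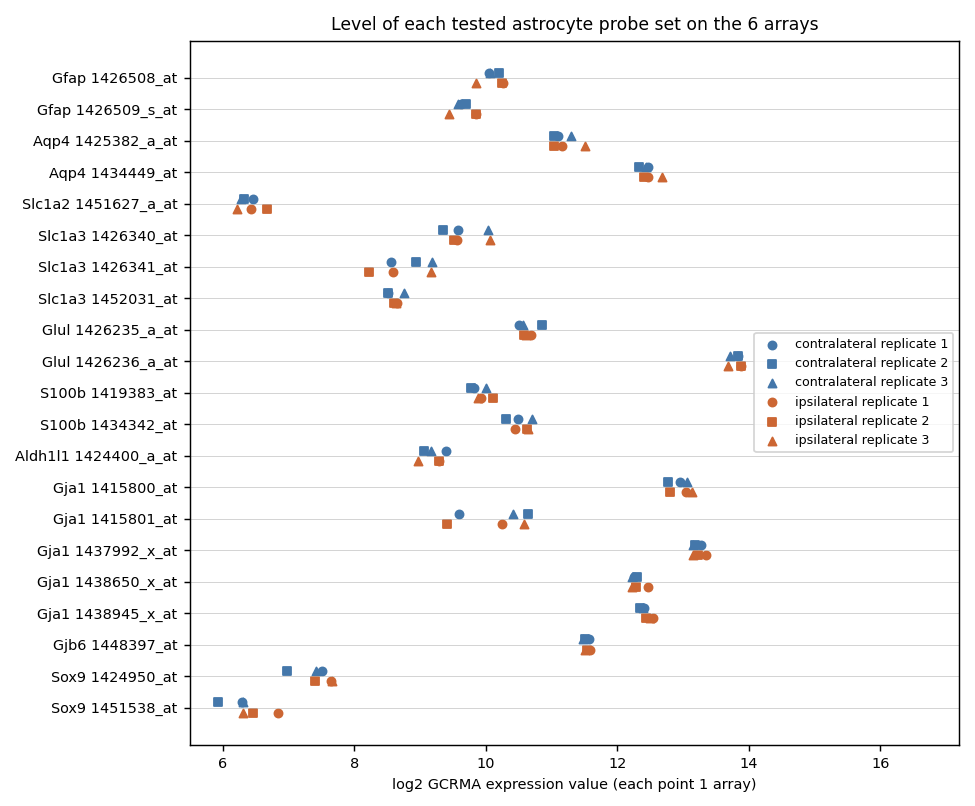
Log2 GCRMA level (x axis) of each of the 21 tested astrocyte probe sets (y axis) on the 6 arrays, contralateral in blue above and ipsilateral in orange below, with the marker shape giving the replicate number. Points of the 2 sides overlap in every row but that of 1438945_x_at of Gja1, whose 3 ipsilateral points lie above the 3 contralateral ones.

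Gfap, the filament gene, showed no difference between sides beyond the spread of its pools. Its probe set 1426508_at read 10.05, 10.21 and 10.07 on contralateral replicates 1, 2 and 3 and 10.27, 10.24 and 9.85 on the ipsilateral ones. The lowest and the highest value were thus both ipsilateral, and the contralateral pools lay between them. The difference was 0.01 (SE 0.14), with a 95% interval from 0.80-fold to 1.26-fold and an adjusted p of 1.00 in limma. The other probe set, 1426509_s_at, whose suffix marks probes shared with another transcript, read 9.61, 9.70 and 9.57 contralaterally and 9.85, 9.85 and 9.44 ipsilaterally. Its difference was 0.09, with an interval from 0.85-fold to 1.32-fold. Both Gfap probe sets were higher on the infused side in replicates 1 and 2, by 0.21 and 0.03 for 1426508_at and by 0.24 and 0.16 for 1426509_s_at. Both were lower there in replicate 3, by -0.22 and -0.13. Ipsilateral replicate 3 held the lowest Gfap value of the 6 arrays in each, and without it the differences were 0.14 and 0.22. The spread of the ipsilateral pools (SD 0.24 and 0.24) exceeded that of the contralateral pools (SD 0.08 and 0.06), with n = 3 each, a difference that was not tested.

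Aqp4, the water channel of astrocyte endfeet, lay slightly higher on the infused side without separating the sides. On 1434449_at the contralateral pools read 12.46, 12.32 and 12.43 and the ipsilateral pools 12.46, 12.40 and 12.67. The difference was positive in 3 of 3 replicates but as small as 0.004 in replicate 1, and averaged 0.11 (SE 0.11, interval 0.91-fold to 1.28-fold). On 1425382_a_at the values were 11.09, 11.03 and 11.30 against 11.16, 11.03 and 11.50, a difference of 0.09. Ipsilateral replicate 3 was the highest array for Aqp4 on both probe sets, the same array that was lowest for Gfap.

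The glutamate uptake and recycling genes showed no shared direction. Slc1a2, which encodes the main forebrain glutamate transporter GLT-1, was measured by 1 probe set that read 6.46, 6.32 and 6.27 contralaterally and 6.42, 6.67 and 6.21 ipsilaterally. Its difference of 0.09 (interval 0.85-fold to 1.33-fold) came from replicate 2 (0.35), since the infused side was lower in replicates 1 and 3 (-0.04 and -0.06). Slc1a3, the gene of the transporter GLAST, had 3 tested probe sets. The 1452031_at set read 8.51, 8.51 and 8.75 against 8.65, 8.60 and 8.63, a difference of 0.04 (SE 0.10). On 1426340_at both replicate 3 arrays stood high (10.04 contralaterally and 10.07 ipsilaterally, against 9.35 to 9.57 on the other 4), so the spread lay between replicates and not between sides, whose difference was 0.06. Glul, the gene of glutamine synthetase, read 13.83, 13.83 and 13.71 contralaterally and 13.88, 13.87 and 13.68 ipsilaterally on 1426236_a_at, a difference of 0.02 (SE 0.10, interval 0.86-fold to 1.19-fold). Its other probe set, 1426235_a_at, differed by -0.02.

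Of the 2 gap junction genes Gjb6 had the smallest spread over arrays of the 21 probe sets, and 1 probe set of Gja1 the widest. Gjb6, which encodes another connexin of astrocytes, read 11.56, 11.51 and 11.48 contralaterally and 11.58, 11.54 and 11.51 ipsilaterally. Its 6 arrays spanned 0.10, and the difference of 0.02 (SE 0.08) had an interval from 0.89-fold to 1.17-fold. Gja1, the gene of the main astrocyte connexin, had 5 tested probe sets, of which 4 were higher on the infused side by 0.04 to 0.11. The set 1438945_x_at read 12.41, 12.34 and 12.40 contralaterally and 12.55, 12.44 and 12.50 ipsilaterally. Of all probe sets tested, 2.82% had every ipsilateral array higher and 3.44% had every one lower. Among the 21 this set was the 1 in which the sides did not overlap. Its difference of 0.11 (SE 0.09, interval 0.94-fold to 1.24-fold) had an adjusted p of 1.00 in limma and an exact two-sided permutation p of 0.1, the smallest that 3 arrays against 3 can give. The _x suffix marks probes that can bind other transcripts. On 1415800_at, which carries no such mark, the arrays read 12.95, 12.77 and 13.06 against 13.04, 12.80 and 13.14, a difference of 0.07.

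Gja1 1415801_at and Slc1a3 1426341_at, the 2 member probe sets with the most negative differences, had the same 2 lowest arrays. Gja1 1415801_at read 9.60, 10.64 and 10.41 contralaterally and 10.25, 9.40 and 10.58 ipsilaterally, with the lowest values on ipsilateral replicate 2 and contralateral replicate 1. Its difference of -0.14 had an interval from 0.50-fold to 1.66-fold, and in replicate 2 it was -1.24. Slc1a3 1426341_at read 8.55, 8.94 and 9.18 contralaterally and 8.58, 8.22 and 9.17 ipsilaterally, a difference of -0.23 (interval 0.55-fold to 1.32-fold). It was again lowest on ipsilateral replicate 2 and next lowest on contralateral replicate 1. Its highest arrays were those of replicate 3 on both sides, as for 1426340_at of the same gene. A sign of RNA length is given beside these 2 probe sets. The array's control probes for the transferrin receptor transcript, placed toward its 5′ and its 3′ end, differed (5′ minus 3′, log2) by -1.90, -1.17 and -1.59 contralaterally and by -1.72, -2.28 and -1.75 ipsilaterally. The most negative of these belonged to the 2 arrays on which both probe sets were lowest. The least negative belonged to contralateral replicate 2, the highest array for 1415801_at but not for 1426341_at. The actin controls read -1.22, -0.93 and -1.24 contralaterally and -1.06, -1.30 and -1.24 ipsilaterally. Ipsilateral replicate 2 was there the most negative. Contralateral replicate 1 was, by a narrow margin, less negative than both replicate 3 arrays, the highest arrays for 1426341_at. The Gapdh controls read -0.10, 0.18 and 0.04 contralaterally and 0.02, -0.20 and 0.08 ipsilaterally. Their lowest arrays were ipsilateral replicate 2 and contralateral replicate 1, and their highest was contralateral replicate 2. The part of transcript integrity in these 2 probe sets was not tested.

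**Figure D2:**
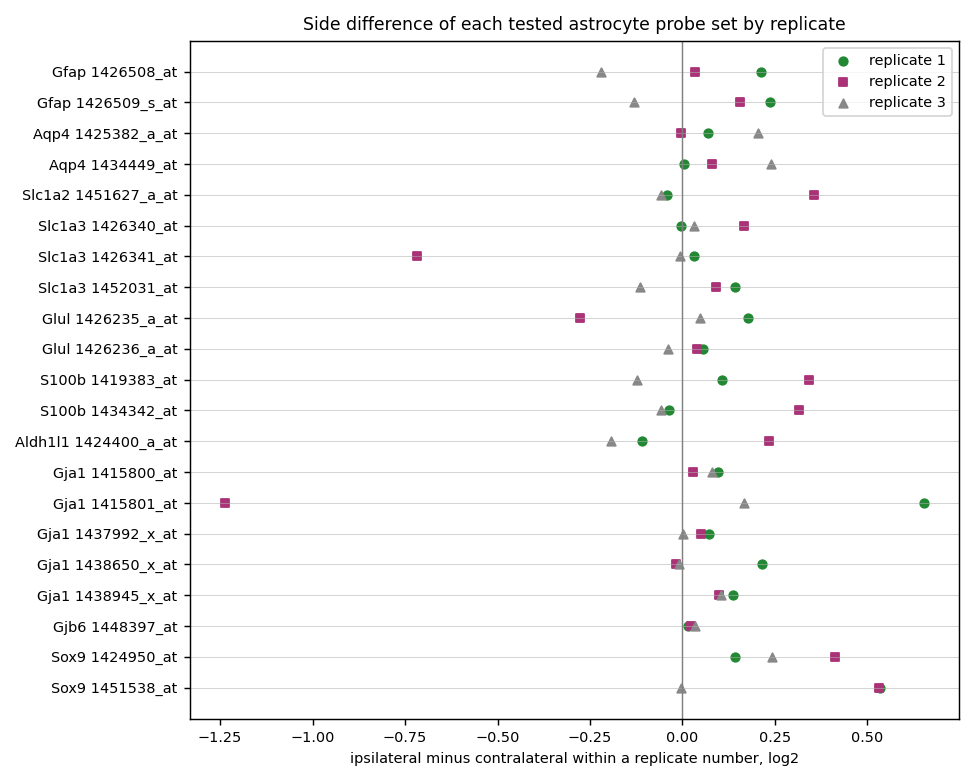
Ipsilateral minus contralateral difference in log2 units (x axis) within replicate numbers 1, 2 and 3 for each of the 21 tested astrocyte probe sets (y axis). Most points lie near 0, while replicate 2 of Gja1 1415801_at (-1.24) and of Slc1a3 1426341_at (-0.72) lie far to the left and both Sox9 rows lie mostly to the right.

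S100b and Aldh1l1, a calcium-binding protein gene and a folate enzyme gene that label astrocyte cell bodies, overlapped between sides. S100b 1419383_at read 9.82, 9.77 and 10.01 contralaterally and 9.93, 10.11 and 9.88 ipsilaterally, a difference of 0.11 (SE 0.11, interval 0.90-fold to 1.29-fold). The second probe set of S100b differed by 0.07. In both, replicate 2 carried the difference (0.34 and 0.32), while replicate 3 ran the other way (-0.12 and -0.06). S100b is also expressed by oligodendrocytes, and 9 of 9 tested oligodendrocyte markers were higher on the infused side (median 0.13) with 0 of 9 at an unadjusted p under 0.05, a movement whose part in S100b was not tested. Aldh1l1 read 9.40, 9.05 and 9.16 contralaterally and 9.29, 9.29 and 8.97 ipsilaterally, a difference of -0.02 (SE 0.14, interval 0.78-fold to 1.23-fold). Its highest and lowest arrays came from different sides.

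Sox9, a transcription factor gene of glial development, had the largest differences among the members on both of its probe sets. On 1451538_at the contralateral arrays read 6.30, 5.93 and 6.30 and the ipsilateral arrays 6.83, 6.46 and 6.30. The infused side was higher in replicates 1 and 2 (0.53 and 0.53) and level in replicate 3 (-0.005), so the sides touched. The difference was 0.35 (SE 0.17), with an interval from 0.96-fold to 1.70-fold, an unadjusted limma p of 0.0808 and an adjusted p of 1.00 in limma. On 1424950_at the arrays read 7.51, 6.98 and 7.42 against 7.65, 7.39 and 7.66, higher on the infused side in 3 of 3 replicates by 0.14, 0.41 and 0.24. Its difference was 0.27 (SE 0.16, interval 0.92-fold to 1.57-fold), with an unadjusted limma p of 0.145. With the replicate number as a block the unadjusted limma p of 1424950_at was 0.0398, against 3.72% of all probe sets under 0.05, and the adjusted p was 0.991. Contralateral replicate 2 was the lowest Sox9 array on both probe sets, and without it the differences were 0.11 for 1424950_at and 0.23 for 1451538_at. Without ipsilateral replicate 1, the highest array of 1451538_at, its difference was 0.20.

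Sox9 is also expressed by ependymal and choroid plexus cells, which border the nucleus, and their markers varied between arrays. Averaged over 9 tested choroid plexus markers, contralateral pools read 8.16, 7.83 and 7.40 and ipsilateral pools 9.12, 5.02 and 5.26, led by Ttr, the transthyretin gene (15.51, 15.65 and 15.21 against 15.85, 11.87 and 12.98). Ipsilateral replicate 1, the highest array for these markers, was also the highest for Sox9 1451538_at (6.83) and close to the highest for 1424950_at (7.65 against 7.66). Ipsilateral replicate 2, their lowest array, read above contralateral replicate 2 on both Sox9 probe sets. In a fit with the mean level of the choroid plexus markers as a covariate the Sox9 differences were 0.31 and 0.50 (unadjusted limma p of 0.153 for 1424950_at and 0.0222 for 1451538_at). The share of all probe sets under 0.05 was not counted for that fit. The 2 lowest arrays for these markers were both ipsilateral, so that fit cannot separate their level from side. The 5 tested ependymal markers had means of 7.41, 7.23 and 7.09 contralaterally and 7.69, 7.08 and 7.43 ipsilaterally. Among them Foxj1, the regulator of motile cilia, read 5.35, 4.85 and 5.07 against 5.60, 5.17 and 5.92, a difference of 0.47 (SE 0.21). Foxj1 was the 1 of the 5 that was higher on the infused side in 3 of 3 replicates, and the median difference of the 5 was 0.04. The part of choroid plexus or ependymal RNA in the Sox9 values was not tested.

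**Figure D3:**
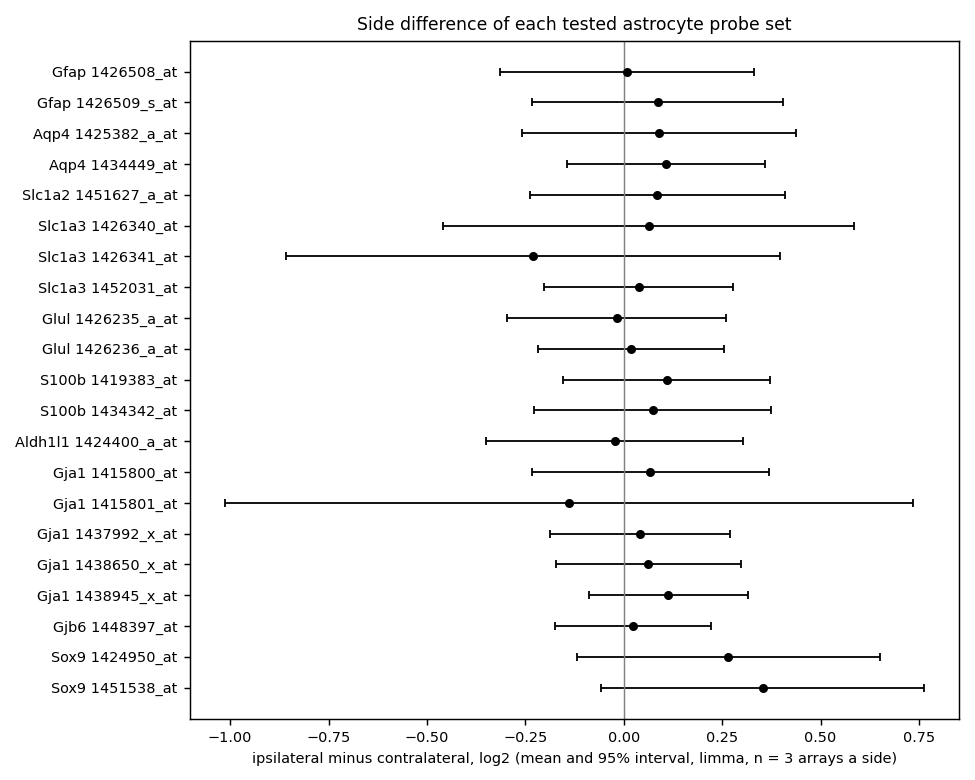
Ipsilateral minus contralateral difference in log2 units (x axis) of each of the 21 tested astrocyte probe sets (y axis), with points for the difference of means and bars for the 95% interval from limma, n = 3 arrays a side. Every bar crosses 0 in this fit, which has no replicate block, and the points of Sox9 (0.27 and 0.35) lie farthest to the right.

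By direction alone, 17 of the 21 member probe sets were higher on the infused side, where 48.2% of all probe sets tested were. Probe sets of a gene share its RNA, and taken by gene 8 of 10 were higher by the mean of their probe sets and 9 of 10 by the brightest one. The higher probe sets numbered 17 of 21 within replicate 1 (45.5% of all), 16 within replicate 2 (52.3% of all) and 10 within replicate 3 (49% of all). Higher in 3 of 3 replicates were 6 of the 21 probe sets, against 10.7% of all, and they belonged to Aqp4, Gjb6, Sox9 and, for 3 of them, Gja1. Lower in 3 of 3 replicates were 0 of the 21, against 13% of all. Leaving out single arrays or replicate numbers gave 13 to 18 of 21, with the lowest count without ipsilateral replicate 1.

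The 10 genes did not rise and fall together over the arrays. With each gene represented by its brightest probe set, its Pearson correlation with the mean of the other 9 over the 6 arrays ran from -0.25 for Gfap to 0.69 for Sox9, given as a description, since the sides of a replicate number may come from the same mice. The centred mean of the 10 was lowest on contralateral replicate 2 (-0.13) and lay between 0.004 and 0.05 on the other 5. The genes outside the group with the profile most like that mean were Eif5b, a translation initiation factor gene, Mycl, a MYC family transcription factor gene, the elongation factor 2 kinase gene Eef2k, the plakophilin gene Pkp4 and Cc2d1a. Their correlations with it ran from 0.99 to 1.00 over 6 arrays, where 179 of 14122 named probe sets exceeded 0.9. All 5 were lowest on contralateral replicate 2, which follows from their being picked for likeness to that mean. Eif5b, for one, read 6.74, 6.29 and 6.68 against 6.82, 6.75 and 6.68.

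Further astrocyte genes, from a list of transporters, channels, enzymes and regulators, likewise held no member past the test. Of 40 listed genes 32 were on the array and 31 were tested, of which 17 were higher and 14 lower ipsilaterally, with a median difference of 0.003. In 3 of 3 replicates 1 of the 31 was higher and 5 were lower, against 10.7% and 13% of all probe sets. Passing the adjusted threshold in limma were 0 of 31, and 0 had an unadjusted p under 0.05. Kcnj10, the potassium channel Kir4.1 that works beside Aqp4 in endfeet, differed by 0.02 (SE 0.11), and Aldoc, the astrocyte aldolase gene, by 0.003 (SE 0.09). Slc38a3, which exports glutamine made by Glul's enzyme, differed by -0.08 (SE 0.12). These 3 were named for their role and not by the rule. By smallest p the list was led by the tight junction gene Cldn10 (-0.33, SE 0.16), which was lower in 3 of 3 replicates and had an unadjusted limma p of 0.0763, or 0.0145 with the replicate block. It was followed by Nfia, a transcription factor gene of glial development (0.24, SE 0.14), the brevican gene Bcan (0.16), the amino acid transporter gene Slc7a10 (-0.09) and the neurotensin receptor gene Ntsr2 (-0.11).

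Genes that reactive astrocytes are known to induce were split between directions. Of 39 listed genes 33 were on the array and 19 were bright enough to test, of which 10 were higher and 9 lower with a median of 0.07. In 3 of 3 replicates 2 of the 19 were higher and 5 lower, against the same shares of all probe sets. Passing the adjusted threshold in limma were 0 of 19, and 2 had an unadjusted p under 0.05, against 2.38% of all, both lower on the infused side. These were Sphk1, a sphingosine kinase gene, at 5.16, 5.10 and 5.01 contralaterally and 4.67, 4.85 and 4.90 ipsilaterally, and Srgn, a proteoglycan gene, at 8.37, 8.46 and 8.29 against 8.12, 8.13 and 8.14. In these 2 and in Fbln5, an elastic fibre gene (9.03, 9.21 and 9.06 against 9.01, 8.86 and 8.79), the sides did not overlap, which made 3 of 19 with every ipsilateral array lower, against 3.44% of all probe sets. Fbln5 differed by -0.21, and the next were the small heat shock protein gene Hspb1 (-0.29) and the cytokine gene Clcf1 (-0.24). Vim, the filament gene that rises with Gfap in reactive cells, read 10.12 ± 0.06 contralaterally and 10.21 ± 0.10 ipsilaterally (SD, n = 3 each), and Stat3 differed by 0.11 (SE 0.12). Lcn2, a strongly inducible reactive marker, varied more within sides (SD 1.05 and 0.91) than between them (0.12). Vim, Stat3 and Lcn2 were named for their role.

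**Figure D4:**
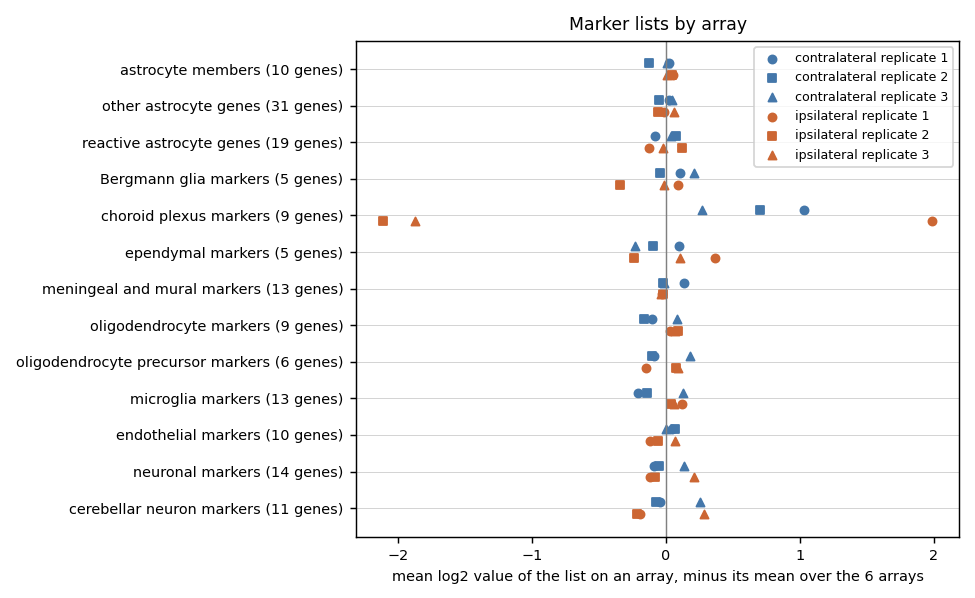
Mean log2 value of each marker list on an array minus that list's mean over the 6 arrays (x axis), for the astrocyte members and 12 other lists (y axis), contralateral in blue and ipsilateral in orange with the marker shape giving the replicate number. The astrocyte lists stay close to 0 on all arrays, while the choroid plexus list spreads widest, with ipsilateral replicates 2 and 3 far below the rest.

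Markers of other cells that the dissected tissue could hold were read beside these genes. Those named were picked by smallest p within a list, and Ttr by choice, so some run against the direction of their list. By the mean, 48.2% of all probe sets tested were higher ipsilaterally. Bergmann glia of the adjoining cerebellum, which also express Slc1a3 and Gja1, had 4 of 5 markers lower ipsilaterally (median -0.21), with means of 9.44, 9.29 and 9.54 against 9.43, 8.99 and 9.32. Hopx differed by -0.21 (SE 0.11) and A2m by -0.46 (SE 0.40). The lowest array of the Bergmann markers, ipsilateral replicate 2, was also the lowest of Gja1 1415801_at and Slc1a3 1426341_at. Contralateral replicate 1, the next lowest of both probe sets, was nearly level with ipsilateral replicate 1 for these markers (9.44 against 9.43). The part of Bergmann glia in the values of both probe sets was not tested. Microglia markers were higher for 11 of 13 (C1qb 0.38 and Cd68 0.41) and meningeal and mural markers lower for 8 of 13 (Vtn -0.23 and Pdgfrb -0.17). Oligodendrocyte precursor markers were higher for 5 of 6 (Vcan -0.20 and Cspg4 0.08), endothelial markers lower for 6 of 10 (Eng -0.31 and Kdr -0.41) and neuronal markers lower for 8 of 14 (Rbfox3 0.31 and Nefm 0.08). Cerebellar neuron markers were lower for 6 of 11 (Calb1 -0.48 and Car8 -0.31). The oligodendrocyte list was led by Mbp (0.17) and Mobp (0.14), the choroid plexus list by Ttr (-1.89) and Kcne2 (-2.29), and the ependymal list by Foxj1 and Hdc (0.23). None of these lists had a member past the adjusted threshold in limma, and at an unadjusted p under 0.05 there were 3 of 13 microglia genes, 1 of 13 meningeal and mural genes and 1 of 11 cerebellar genes, against 2.38% of all probe sets.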

How the data were processed

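Total RNA from 6 pools was measured on 1 array each. The authors deposited log2 GCRMA expression values per probe set, normalized between arrays. GCRMA comes from the submitters' processing notes, without its version or settings, and log2 was inferred from the range of values (1.40 to 16.0). GCRMA pulls dim probes toward a floor, and normalization removes any change common to most genes. Precision is limited by the 3 arrays a side. Array medians lay between 5.86 and 5.91, and no 2 arrays shared more than 0.0264% of their values.

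Side and replicate number were taken from each description, and p-values measure the spread between these pools. Of 22690 probe sets 20393 had 1 symbol in the platform annotation, 691 several and 1606 none, and only the first were named. The 64 control probe sets and 7328 with a mean at or below 4 were left out. Differences were fitted with lmFit and eBayes of limma 3.58.1 (R 4.3.3) over all 6 arrays without a replicate block, with Benjamini-Hochberg adjustment over 15298 probe sets. On simulated data this fit recovered 69% of planted log2 differences of 1 and 94.2% of those of 2 at the adjusted threshold. Smaller differences were not simulated. Intervals are 95% intervals of that fit, and a fold is 2 to the power of the log2 difference. Lists used the brightest tested probe set per gene.

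Members and lists were chosen with earlier results of these data known. Named genes were all members, the 5 genes of smallest p in each astrocyte list and the 2 in each other list, Ttr, and the 5 genes most like the members' mean, with exceptions stated. Each infusion was unilateral, so equal numbers were taken to mark both sides of 1 set of mice, which the labels do not state. Same-numbered deviations from the side means correlated at 0.09 (replicate 1), 0.04 (replicate 2) and 0.57 (replicate 3), other pairs at -0.37 to 0.30. Alternatives were the block, other filters, normalizations and variance models, a choroid plexus covariate, and leaving out arrays.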

Additional observations from a re-analysis of the deposited data

How the results depend on the processing

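The count of 0 member probe sets past the adjusted threshold in limma held under every alternative run, and the count higher on the infused side stayed between 13 and 19 (of 21, or of 23 without a filter on dim probe sets), and was 8 or 9 of 10 by gene. The count with an unadjusted p under 0.05 was 0. It became 1 with the replicate block (Sox9 1424950_at), with a plain equal-variance test (Gja1 1438945_x_at) and with the choroid plexus covariate (Sox9 1451538_at). The share of all probe sets under 0.05 was counted only for the main fit (2.38%) and the replicate block (3.72%). Counts under the other alternatives therefore have no share to be read against. An alternative chosen after seeing the data left out both ipsilateral arrays low in choroid plexus markers. It kept 1 ipsilateral array, so only its differences are given, such as 0.66 for Sox9 1451538_at. Leaving out arrays or replicate numbers gave 0 to 1, with 1 without ipsilateral replicate 3 (0.47) or without replicate 3 of both sides (0.53), both for Sox9 1451538_at. The replicate block changed no other call among the members, and it took 1 other astrocyte gene, Cldn10, under an unadjusted p of 0.05. The count of 2 reactive astrocyte genes under that p became 0 to 4 when arrays were left out, 1 with a minimum mean of 6 and 1 with a trended variance. That of 0 other astrocyte genes became 1 with the covariate and 0 to 1 when single arrays or replicate numbers were left out.

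Of 21 differences 6 kept their sign in all 18 alternatives. The replicate block, the filters and the variance models leave a difference of means unchanged here, so no sign could turn under them. Under the choroid plexus covariate the sign turned for Aldh1l1 (0.034), Glul 1426235_a_at (0.010) and Slc1a3 1426340_at (-0.026). Without both low arrays it turned for Aldh1l1 (0.084), Gja1 1415801_at (0.035), Glul 1426235_a_at (0.041), S100b 1434342_at (-0.053) and Slc1a3 1426340_at (-0.088). That fit held 1 ipsilateral array. When arrays or replicate numbers were left out, signs turned within these ranges: Aldh1l1 -0.15 to 0.084, Aqp4 1425382_a_at -0.046 to 0.19, Gfap 1426508_at -0.093 to 0.14, Gja1 1415800_at -0.0087 to 0.16, 1415801_at -0.54 to 0.41, 1437992_x_at -0.012 to 0.088 and 1438650_x_at -0.014 to 0.11. The ranges were -0.11 to 0.11 and -0.020 to 0.086 for Glul 1426235_a_at and 1426236_a_at, -0.0080 to 0.22 and -0.047 to 0.18 for S100b 1419383_at and 1434342_at, and -0.049 to 0.20 for Slc1a2. For Slc1a3 they were -0.11 to 0.26 (1426340_at), -0.49 to 0.013 (1426341_at) and -0.013 to 0.12 (1452031_at). The cause was not tested.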

Other observations

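Control transcripts added during array preparation differed between arrays. The bioB control (middle probe set) read 9.60, 9.69 and 8.55 on contralateral replicates 1, 2 and 3 and 9.72, 9.78 and 8.30 on the ipsilateral ones, so both replicate 3 arrays were the low ones. Replicate 3 was also the replicate in which both Gfap probe sets were lower on the infused side, where 49% of all probe sets tested were higher. Any link was not tested. The 18S ribosomal control toward the 5′ end was likewise lowest on replicate 3, at 7.28 contralaterally and 5.72 ipsilaterally, against 8.53 to 9.22 on the other 4 arrays. The dap control was present on contralateral replicates 1 and 3 (15.40 and 15.29) and near the floor on the other 4 arrays, the lys control was present on contralateral replicate 2 and ipsilateral replicates 1 and 3 (14.45, 14.31 and 14.65), and the phe control on ipsilateral replicate 2 alone (14.86).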
